A study of Mus musculus with 2 samples.

Results

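The genes Tyr, Tyrp1, Dct, Pmel, Mlana, Slc45a2, Oca2, Slc16a8, Ttr and Best1, 10 genes of pigmentation and of the retinal pigment epithelium, were examined in mouse retina at postnatal day 14. They were taken as a list of names, and every non-control probe whose RefSeq accession belongs to one of them was used, which gave 12 probes on 21 spots for all 10 genes, out of 55681 probes on 59305 spots and 20660 named genes. One-colour Agilent arrays were compared, 1 with RNA of retina labelled Mef2d KO, a knockout of a transcription factor gene of the MEF2 family, and 1 with RNA of wild-type (WT) retina. Per the labels, retinas of both groups were dissected with forceps at P14. The labels give no strain or coat colour, no sex, no number of animals, no deleted exon and no statement on whether the pigment epithelium was left on the retina. Each group has a single array, so nothing here was checked in replicates and no p-values are reported.

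The pigment epithelium is a sheet of pigmented cells behind the photoreceptors. It makes melanin, recycles retinoids for the visual pigments, takes up shed outer segments and moves lactate, ions and water between the retina and the choroid. Melanin is built in melanosomes, organelles shared by the pigment epithelium and by melanocytes of the choroid and iris. Tyrosinase starts the synthesis, a pair of related enzymes process later intermediates, amyloid fibrils of PMEL carry the pigment, and membrane transporters set the acidity inside the organelle. In bulk RNA of a dissected tissue, fewer cells of a type and less RNA per cell cannot be told apart.

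The 3 melanin enzyme genes share a short element in their promoters, and these are printed because the genes form 1 family and are compared with each other below. RefSeq (GRCm38.p6) gave a promoter for 6 of the 10 genes, Tyr, Tyrp1, Dct, Oca2, Slc16a8 and Best1. The 250 bases before the annotated start are shown for the enzyme genes, 5′ to 3′ on the strand of the gene, with each TCATGTG on either strand in capitals. This M-box is known as a binding element of MITF, the main regulator of pigment cells. The Tyr bases are chr7:87493513-87493762 on the minus strand, the Tyrp1 bases are chr4:80833963-80834212 on the plus strand and the Dct bases are chr14:118052247-118052496 on the minus strand.
Tyr: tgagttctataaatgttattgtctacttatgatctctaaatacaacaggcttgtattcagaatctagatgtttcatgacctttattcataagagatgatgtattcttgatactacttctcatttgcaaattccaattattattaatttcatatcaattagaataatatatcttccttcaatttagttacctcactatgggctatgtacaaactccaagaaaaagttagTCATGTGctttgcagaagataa
Tyrp1: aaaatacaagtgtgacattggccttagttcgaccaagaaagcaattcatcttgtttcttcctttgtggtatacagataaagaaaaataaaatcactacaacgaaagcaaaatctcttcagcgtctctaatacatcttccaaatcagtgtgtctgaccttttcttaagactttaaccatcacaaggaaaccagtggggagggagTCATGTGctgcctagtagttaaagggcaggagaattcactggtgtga
Dct: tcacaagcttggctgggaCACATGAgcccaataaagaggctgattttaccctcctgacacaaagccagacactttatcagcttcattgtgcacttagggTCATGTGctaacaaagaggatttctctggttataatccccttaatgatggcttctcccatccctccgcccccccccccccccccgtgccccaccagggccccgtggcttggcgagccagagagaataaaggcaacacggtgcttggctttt

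The M-box lay 22 to 16 bases before the start of Tyr and 47 to 41 bases before that of Tyrp1. Dct held it 151 to 145 bases before its start and again, on the other strand, 232 to 226 bases before it. Of all 32851 promoters of the same length, 3.25% held TCATGTG on either strand, and 3 of the 6 promoters examined here did. The M-box was already known from pigment cells, so these shares are not a test. Its inner part CATGTG, which is contained in every TCATGTG, was present in 12.3% of all promoters and also in Oca2. The letters GGATTA, bound by OTX factors of the eye, were found in Best1 and Dct and in 6.25% of all promoters. The MEF2 consensus site was matched in Tyr alone of the 6, 115 to 106 bases before its start, and in 2.92% of all promoters. These are matches of letters and not measured binding.

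Pigment cell transcripts were read on both arrays. Of the 10 genes, 9 were well above background on both by the scanner software's flag, and Best1 was on neither. None of the 9 differed by 2-fold in either direction. Of all 16190 named genes well above background on both arrays, 0.618% were higher by at least 2-fold on the array labelled Mef2d KO and 1.74% lower by that much. The difference was above 0 for 7 of the 9, against 48.8% of all genes. Their median difference was 0.17 on the log2 scale (array labelled Mef2d KO minus WT), against -0.0060 for all genes. The 9 ranged from -0.28 to 0.41, with Tyrp1 and Slc16a8 at the upper end and Tyr at the lower.

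Each difference below is between levels, a level being log2 of a spot's processed signal minus the 75th percentile of its array, which was 858 on the array labelled Mef2d KO and 807 on the WT array. The error after ± is that of the scanner software for the difference between spots and holds no variation between animals. Replicate spots gave a second measure of technical spread, with a median SD of the difference between spots of 0.051 at levels above 1, 0.064 from -1 to 1, 0.098 from -3 to -1 and 0.22 from -5 to -3. Differences depended on level across all genes, so each member is also set beside the other genes within 0.5 of its own mean level. Levels of different probes are not compared, since each probe has its own efficiency.

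**Figure D1:**
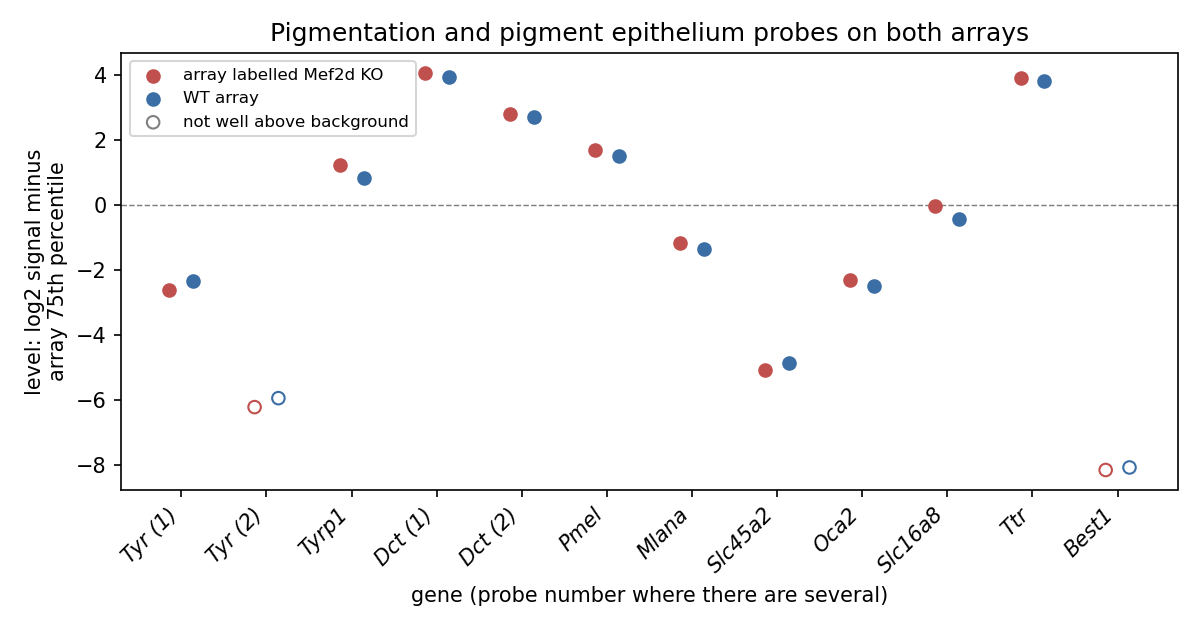
Level of each probe (log2 of the processed signal minus the 75th percentile of the array) on the array labelled Mef2d KO (left point) and the WT array (right point). Open points are not well above background, which holds for Best1 and the second Tyr probe, and heights are to be read within a probe, where the points differ by at most 0.41.

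Tyrp1 had the largest difference of the 9. It encodes an enzyme that oxidises a late intermediate of black eumelanin. Its 1 probe gave a processed signal of 2027 on the array labelled Mef2d KO and 1437 on the WT array, which corresponds to levels of 1.24 and 0.83. The difference was 0.41 ± 0.20, or 1.33-fold. Of all genes, 4.32% had a difference at least as high. The 2104 other genes of like level had a median difference of 0.026, with a middle range of -0.084 to 0.12.

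Dct, the dopachrome tautomerase that acts between tyrosinase and TYRP1, was read by both of its probes. The brighter gave signals of 14521 on the array labelled Mef2d KO and 12525 on the WT array, and the other 5988 and 5365. Their differences of 0.13 ± 0.20 and 0.071 ± 0.20 had the same sign and lay within the scanner error. Of all genes, 23.1% had a difference at least as high as that of the brighter probe.

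Tyr, the gene of tyrosinase, which catalyses the first and limiting step of melanin synthesis, had the opposite sign. Its brighter probe gave 141.2 on the array labelled Mef2d KO and 161.6 on the WT array. The difference was -0.28 ± 0.21, or 0.822-fold, and 14.6% of all genes had one at most as high. Its value was also below the 25th percentile of -0.23 for 1346 other genes of like level, whose median was -0.070. A second Tyr probe was printed on 10 spots and was not well above background. Its spots ranged from 5.94 to 19.6 with a median of 12.72 on the array labelled Mef2d KO, and from 7.07 to 20.9 with a median of 12.69 on the WT array. The spot means were 12.3 ± 4.34 on the array labelled Mef2d KO and 13.8 ± 4.49 on the WT array (SD over 10 spots of 1 array). The ranges overlapped, 4 spots were higher and 6 lower on the array labelled Mef2d KO, and 2 of 10 were well above background on each array. This probe therefore gave no fold change.

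**Figure D2:**
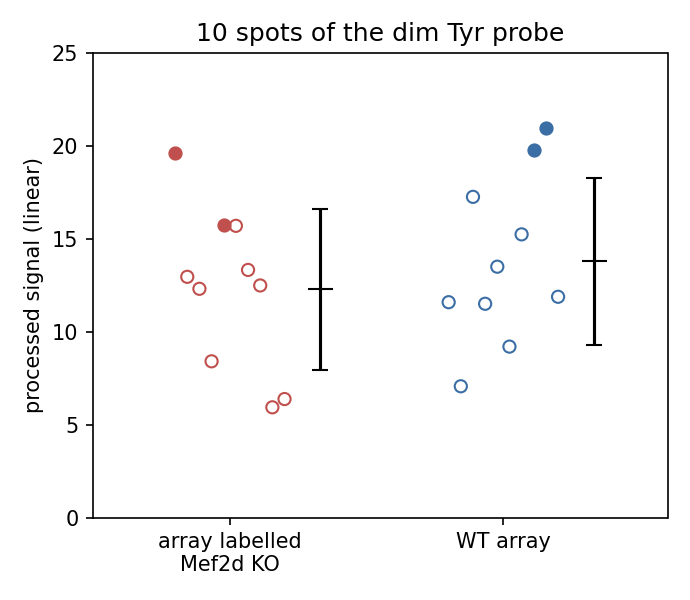
Processed signal of the 10 spots of the dim Tyr probe on the array labelled Mef2d KO (left) and the WT array (right), with the mean and SD over spots beside them and filled points for the 2 spots per array well above background. The spots span 5.94 to 19.6 on the array labelled Mef2d KO and 7.07 to 20.9 on the WT array and overlap over most of that range.

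The melanosome matrix genes both had small positive differences. Pmel encodes the protein whose fibrils form the scaffold for melanin. Its signal was 2804 on the array labelled Mef2d KO and 2298 on the WT array, a difference of 0.20 ± 0.20. Mlana encodes a small melanosomal membrane protein that binds PMEL and aids its maturation. It gave 381.0 on the array labelled Mef2d KO and 318.6 on the WT array, a difference of 0.17 ± 0.20. Both were within the scanner error. Both were above the 75th percentile of other genes of like level, which was 0.12 around either gene.

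The melanosome transporter genes had different signs. Oca2, a melanosomal channel protein that raises the pH inside the organelle, gave 175.6 on the array labelled Mef2d KO and 144.8 on the WT array, a difference of 0.19 ± 0.21. The 1380 other genes of like level had a median of -0.063 and a 75th percentile of 0.10. Slc45a2, a sugar and proton transporter of the melanosome membrane, was read on both arrays at low signal. Its signals were 25.7 on the array labelled Mef2d KO and 28.0 on the WT array, a difference of -0.21 ± 0.32. The 1156 other genes of like level had a median of -0.34, so Slc45a2 stood 0.13 above that median despite its negative sign. Its sign turned to positive with quantile normalization (0.26), cyclic loess (0.20) and normexp background correction.

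Of the genes of pigment epithelium physiology, Slc16a8 had a difference close to that of Tyrp1. Slc16a8 encodes MCT3, the transporter that moves lactate from the pigment epithelium towards the choroid. It gave 838.2 on the array labelled Mef2d KO and 600.0 on the WT array. The difference was 0.39 ± 0.20, or 1.31-fold, at 1.93 times the scanner error. Of all genes, 4.61% had one at least as high, and the 1829 other genes of like level had a median of 0.0039 with a 75th percentile of 0.12. Ttr encodes transthyretin, the carrier of thyroid hormone and of retinol-binding protein, which the pigment epithelium secretes. Its signals of 13081 on the array labelled Mef2d KO and 11471 on the WT array gave a difference of 0.10 ± 0.20, within the scanner error and within the middle range of other genes of like level. Best1 encodes bestrophin-1, a chloride channel of the basal membrane of the pigment epithelium. Its single probe gave 3.01 on the array labelled Mef2d KO and 2.99 on the WT array. Neither was well above background, so no fold change is given for it.

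**Figure D3:**
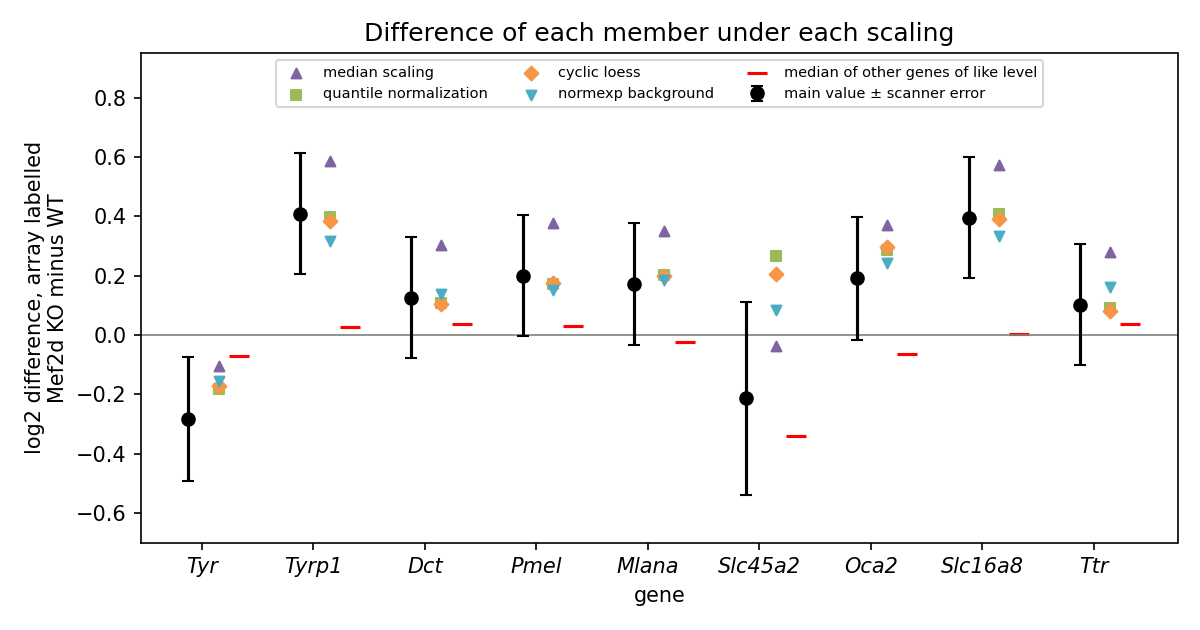
Log2 difference (array labelled Mef2d KO minus WT) of the 9 genes read on both arrays, as the main value with the scanner error (black) and under 4 other scalings, with a red dash for the median of the other genes within 0.5 of the gene's level. Tyr lies below 0 and below its red dash, Slc45a2 crosses 0 between scalings, and Tyrp1 and Slc16a8 lie highest at 0.41 and 0.39.

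Of the 9 genes, 3 (Tyrp1, Slc16a8 and Tyr) had a difference larger than the scanner error. The share of all genes beyond their own scanner error was not counted, so this count does not set the 3 apart. Under the main scaling and its 6 alternatives, Tyr was negative in all 7 (-0.299 to -0.104) and Slc45a2 in 4 of 7. The other 7 genes were positive in all 7, Tyrp1 between 0.32 and 0.59, Slc16a8 between 0.33 and 0.57, Pmel between 0.15 and 0.38, Oca2 between 0.17 and 0.37, Mlana between 0.15 and 0.35, Dct between 0.11 and 0.30 and Ttr between 0.081 and 0.28. The alternatives use the same arrays, so a common sign is not a replicate. Nor are they separate checks: the deposited series table nearly repeats the main values, and median scaling and the other 75th percentile shift every gene alike. Only quantile normalization, cyclic loess and normexp background correction act differently on different genes. Beside other genes of like level, 8 of the 9 stood above the median. Of these, 5 stood above the 75th percentile, namely Tyrp1, Pmel, Mlana, Oca2 and Slc16a8, and Tyr stood below the 25th percentile.

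**Figure D4:**
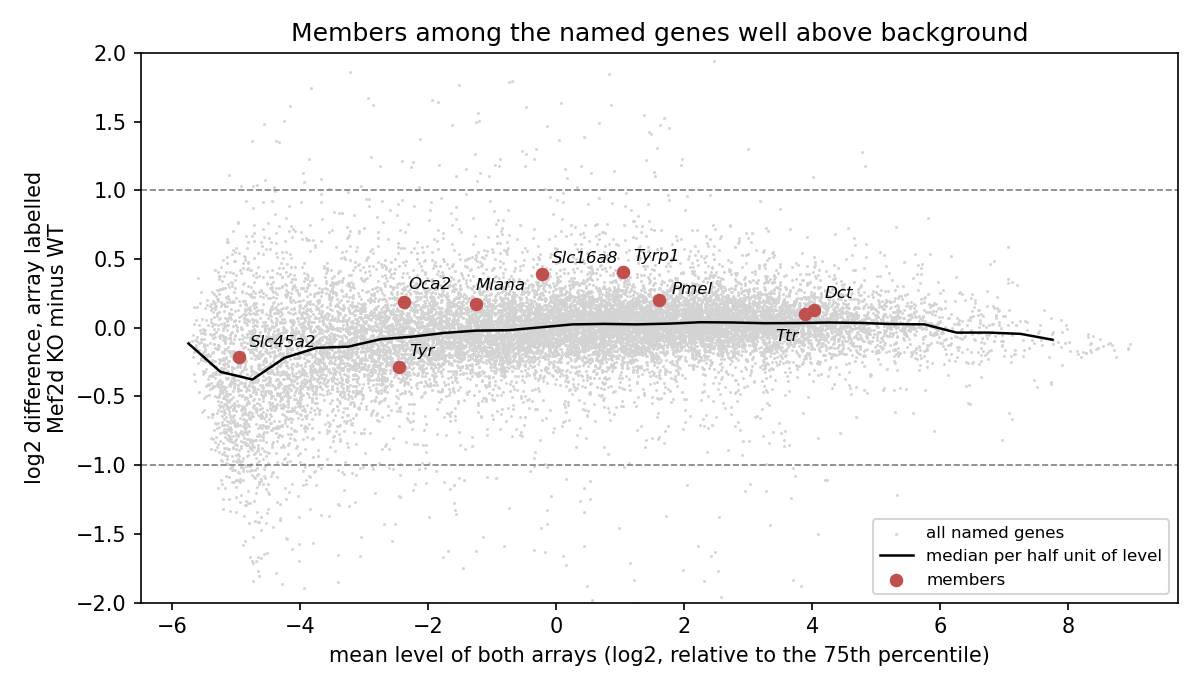
Log2 difference (array labelled Mef2d KO minus WT) against the mean level of both arrays for 16190 named genes (grey), with their median per 0.5 unit of level (black line), the 2-fold marks (dashed) and the 9 members (red). All 9 lie between the 2-fold marks, and 59 genes beyond 2 log2 units either way lie outside the axis.

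Other genes with roles in pigment cells were counted from lists that are not members. Bulk RNA does not show which cells their signal came from. Of 13 defining genes of the pigment epithelium, all 13 were well above background on both arrays and none passed 2-fold. The difference was above 0 for 10 (9 to 13 under the 7 scalings), against 48.8% of all genes (44.9% to 77.4%). The median was 0.12 (0.11 to 0.30 under the 7 scalings), against -0.0060 for all genes (-0.023 to 0.17). All of these were highest with median scaling. The highest were Stra6, the receptor for retinol-binding protein (0.33 ± 0.20), Rgr, an opsin of the pigment epithelium and Mueller glia (0.28 ± 0.20), and Kcnj13, its apical potassium channel (0.25 ± 0.20). The retinol dehydrogenase gene Rdh5 stood at 0.13 and the opsin gene Rrh at 0.086. Lrat, which esterifies retinol, was lowest at -0.16 ± 0.21 and turned to 0.016 with median scaling. The keratin genes Krt8 (-0.081) and Krt18 (-0.018) were near 0.

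In 15 genes that the pigment epithelium shares with the neural retina, 7 differences were above 0 and the median was -0.0060 (0.17 with median scaling), the same as that of all genes. Ezr, the cytoskeletal linker of apical microvilli, was highest at 0.50 ± 0.20. Enpp2, the enzyme autotaxin, was lowest at -0.28 ± 0.20. Bsg, the partner protein of MCT transporters, stood at -0.20 ± 0.20, opposite in sign to Slc16a8.

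Genes of melanosome assembly and transport had differences of both signs. Of 25 such genes, 23 were well above background on both arrays, none passed 2-fold, 14 had a difference above 0 and the median was 0.036. Under the 7 scalings 13 to 20 were above 0 and the median was 0.019 to 0.21, both highest with median scaling. Over all genes the share above 0 was 44.9% to 77.4% and the median -0.023 to 0.17, also highest with median scaling. Rab27a, the small GTPase that tethers melanosomes to their motor, differed by 0.55 ± 0.21, and Gpr143, the melanosomal receptor of ocular albinism, by 0.43 ± 0.21. Hps3, a subunit of a complex that sorts cargo to melanosomes, differed by -0.95 ± 0.20, close to the 2-fold mark. Hps5, of the same complex, gave 0.37 by its brighter probe and -0.24 by its other one.

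Of 10 regulators of pigment cells, 8 were well above background on both arrays, 2 had a difference above 0, and the median was -0.091. Of all genes, 48.8% were above 0 and the median was -0.0060. With median scaling 6 of the 8 were above 0 and the median was 0.087, against 77.4% and 0.172 for all genes. Erbb3, a neuregulin receptor, was well above background on the WT array alone, with a bound of 1.29-fold lower in the Mef2d KO-labelled library. The scanner error of its difference was 0.75 on the log2 scale, more than this bound, so the bound does not set a lower limit. Mitf, the factor that binds the M-box, stood at 0.33 on the array labelled Mef2d KO and 0.41 on the WT array. The difference was -0.076 ± 0.20. With median scaling it was 0.10, below the median of 0.172 for all genes under that scaling. Mc1r, the melanocortin receptor, differed by 0.32 ± 0.20 and Kit, the receptor of melanocyte precursors, by 0.21 ± 0.14. Ednrb, an endothelin receptor, differed by -0.26 ± 0.21 by its brighter probe and -0.47 by its other one. Pax3, a neural crest factor, differed by -0.39 ± 0.27, which turned to 0.0069 in 1 of the 7 scalings.

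**Figure D5:**
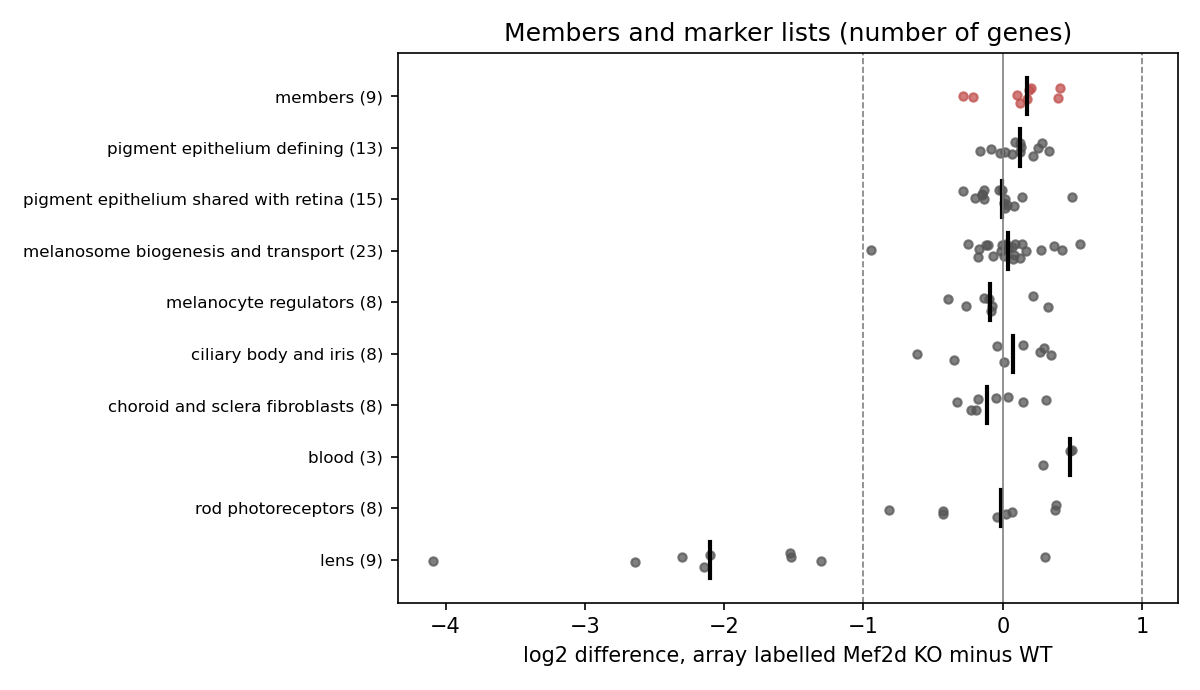
Log2 difference (array labelled Mef2d KO minus WT) of the genes of each list that were well above background on both arrays, with the number of genes in brackets, a bar at the median and dashed 2-fold marks. The members (red, median 0.17) and the 13 defining pigment epithelium genes (median 0.12) lie just above 0, while 8 of 9 lens genes lie past the 2-fold mark on the lower side (6 with normexp background correction).

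Markers of neighbouring tissues moved unevenly, and their part in the members' differences was not tested. Fibroblast genes of choroid and sclera had a median of -0.11 over 8 of 9 genes (-0.13 to 0.064 under the 7 scalings), from -0.33 for Ogn to 0.31 for Fmod, with Lum not well above background on either array. Ciliary body and iris genes, whose epithelia are also pigmented, had a median of 0.076 over 8 of 9 (0.060 to 0.25 under the 7 scalings). By the brightest probe of each gene, they ranged from -0.62 for the water channel gene Aqp1 to 0.34 for Zic1. The other Zic1 probe gave 0.032, and the dimmer probe of another gene of this list gave -0.91, outside this range. The 3 blood genes measured were all higher, at 0.49 for Hbb-b2, 0.48 for Alas2 and 0.29 for Hba-a1, within 2-fold. Of 9 measured lens genes, 8 were lower by at least 2-fold, with a median of -2.10. With normexp background correction 6 of the 9 were lower by that much. Mip, a water channel of lens fibres, had the largest difference at -4.09, and Crybb2, a crystallin gene, stood at -2.64. Lim2 was well above background on the WT array alone. By its own dim signal in the Mef2d KO-labelled library it was 6.60-fold lower there, a difference of -2.72 ± 0.36. This is the observed ratio and does not set a lower limit. Rod genes, which define the labelled tissue, were well above background on both arrays for all 8 listed. Of these, 4 had a difference above 0 and 4 below, with a median of -0.011 (-0.028 to 0.17 under the 7 scalings). Sag, the arrestin gene, was lowest at -0.82 and Pde6b, a subunit of the rod phosphodiesterase, highest at 0.38.

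The checks of the labels bear on the direction of all these values. The Mef2d probes gave differences of 0.43 ± 0.20 and 0.14 ± 0.21, so neither was lower in the library labelled as the knockout. The labels do not say whether these probes lie inside the deleted part. Xist, the RNA of the inactive X chromosome of females, was well above background on the array labelled Mef2d KO alone, where its 2 probes were at least 52.6-fold and 26.9-fold higher. Genotype, sex and dissection cannot be told apart for the pigment genes with 1 array each.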

How the data were processed

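RNA of mouse retina at postnatal day 14 was labelled with Cy3 and read on 1 Agilent array per group. The deposited intensity values were background-subtracted and detrended spot signals, per the file headers, from Agilent Feature Extraction 10.10.1.1. The deposited series table holds these intensities times a constant, 1.76 for Mef2d KO and 1.88 for WT, with medians of 136.6 and 155.1. It is linear and not centred, and no source used here explains those constants.

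Each level was the log2 processed signal of a spot less the 75th percentile of the 59305 probe spots. Outlier-flagged spots (126 for Mef2d KO, 106 for WT) were left out and no spot was saturated. Spots of a probe were averaged, and a probe was well above background where at least 50% of its spots were. RefSeq accessions without version named 27231 of 55669 probes by the GRCm38.p6 annotation; the design names mm9, so only promoter sequences carry coordinates. Each gene used its brightest probe well above background on both arrays. A bound divides the bright array's value by the dim array's own value or by its faintest value well above background, whichever is higher. Some spots brighter than that faintest value were not flagged well above background, so it is not a detection limit.

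The members, lists and designs were chosen with earlier results of these data known. Of each list up to 4 genes were named from the 4 with the largest absolute differences, of the defining pigment epithelium list any measured gene, and beside them genes not well above background on 1 or both arrays. Mitf was named after its values were seen, as were Bsg's comparison with Slc16a8 and the comparison with genes of like level. Some genes of the lists are counted but not reported here by name. Alternatives were other scalings, background correction, probe rules and filters. The gene step was tested on simulated data. Precision is limited by the number of arrays. Software was limma 3.58.1 under R 4.3.3, and pandas 2.3.3, numpy 2.4.6 and matplotlib 3.10.9 under Python 3.11.15.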

Additional observations from a re-analysis of the deposited data

How the results depend on the processing

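The count of members at least 2-fold apart was 0 under all 10 alternatives, and 7 or 8 had a positive difference. The members' median of 0.17 stayed between 0.15 and 0.20 under 9 of the alternatives and was 0.35 with median scaling, which adds 0.178 to every difference and puts the median of all genes at 0.172 and the share of genes above 0 at 77.4%. That share was 55.2% with quantile normalization and 41.4% with no filter on dim probes. Of 89 alternative values of single members, 87 moved by less than the scanner error. The other 2 were those of Slc45a2 with quantile normalization (0.26) and cyclic loess (0.20). Most of the 89 could not move by more than that error, so the count of 87 does not show stability. The series table and the filter and outlier rules returned the members' main values or nearly so. Averaging over probes changed Dct alone. Median scaling and the other percentile shift every difference alike, by less than the error. Only quantile normalization, cyclic loess and normexp background correction act differently on different genes. Over all genes, at least 2-fold lower genes numbered 281, and those higher by as much 100. Median scaling gave 170 lower and 151 higher, quantile normalization 164 and 157, cyclic loess 162 and 154, and normexp background 95 and 63. A mean level above -3 gave 117 lower and 77 higher, and no filter on dim probes 1739 and 225. Signal over background limits Best1, the second Tyr probe and Slc45a2. No paired analysis was possible because each group has 1 array.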
